A study of Homo sapiens with 4 samples.

Results

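The 10 genes described here are chaperones of the endoplasmic reticulum (ER) and targets of the unfolded protein response (UPR): HSPA5, HSP90B1, CALR, CANX, PDIA4, PDIA6, DNAJB9, HERPUD1, XBP1 and SDF2L1. They were chosen by gene symbol among the 33538 genes listed for every library, and each of the 10 was found once. The cells are HCEC 1CT, a normal human colon epithelial line immortalised with TERT and CDK4, grown in a DMEM and M199 mixture with low serum, EGF, hydrocortisone, insulin, transferrin and selenite. All 4 groups had received virus and puromycin: shScr carried a scrambled shRNA and shAPC carried an shRNA against APC, the tumor suppressor that holds β-catenin down, and cells were taken 3 or 7 days after transduction. Each group held 1 library, made from 1 line with 1 shRNA against APC, so that no difference below has a replicate check and no p-value is given. The sources differ on the virus (retroviral in the labels, lentiviral in the methods) and on the version of the 10x Genomics kit.

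When unfolded proteins collect in the ER, the sensors IRE1 (gene ERN1), ATF6 and PERK (gene EIF2AK3) are activated. ATF6 and the spliced form of XBP1 turn on chaperones and degradation factors, while PERK acts through ATF4 on stress genes such as DDIT3 (CHOP) and ATF3. ATF4, DDIT3 and ATF3 also respond to amino acid shortage and other stresses outside the ER, and the ER chaperones are therefore the usual means of telling an ER stress from those. The counts come from the 3′ ends of transcripts, so the splicing of XBP1 that IRE1 carries out was not seen in them.

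The promoters are shown first, because the 10 genes are tied together by short sequences that the UPR factors read. RefSeq promoter windows (GRCh38.p14, 250 bases before to 50 after each start) were found for all 10 genes, in 16 windows. Both strands were searched for the ER stress response element ERSE (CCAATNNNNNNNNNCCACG), for ERSE-II (ATTGG, any base, then CCACG), for the C/EBP-ATF response element CARE (TGATGNAA) that ATF4 reads, and for a UPR element core (TGACGTGG). ERSE lay in the windows of 6 of the 10 genes and of 25 of all 27305 genes (0.0916%), and ERSE-II in those of 2 of the 10 and of 19 of all genes (0.0696%). CARE lay in 1 of the 10 and in 4.46% of all genes, and the UPR element core in 0 of the 10 and in 0.927% of all genes. ERSE was first described in promoters of this family and ERSE-II in that of HERPUD1, so these matches restate how the elements were defined. No exact match to any of the 4 was found in the windows of PDIA4 and DNAJB9. The sites before the start are printed 5′ to 3′ on the strand of the gene, with the match in capitals.
HSPA5, ERSE at -66 to -48 from the start (chr9:125241386-125241414, minus strand): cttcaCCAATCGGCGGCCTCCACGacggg
HSP90B1, ERSE at -194 to -176 (chr12:103930211-103930239, plus strand): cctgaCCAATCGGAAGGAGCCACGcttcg
HSP90B1, ERSE on the other strand at -89 to -71 (chr12:103930316-103930344, plus strand): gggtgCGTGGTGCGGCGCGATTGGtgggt
CALR, ERSE on the other strand at -225 to -207 (chr19:12938379-12938407, plus strand): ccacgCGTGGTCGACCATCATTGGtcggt
CANX, ERSE at -151 to -133 (chr5:179698773-179698801, plus strand): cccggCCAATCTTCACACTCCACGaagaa
PDIA6, ERSE at -86 to -68 (chr2:10812848-10812876, minus strand): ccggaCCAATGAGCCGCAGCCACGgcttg
XBP1, ERSE at -52 to -34 (chr22:28800598-28800626, minus strand): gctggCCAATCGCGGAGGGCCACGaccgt
HERPUD1, ERSE-II at -117 to -107 (chr16:56932020-56932040, plus strand): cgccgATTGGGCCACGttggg
HERPUD1, CARE on the other strand at -176 to -169 (chr16:56931961-56931978, plus strand): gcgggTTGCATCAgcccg
SDF2L1, ERSE-II on the other strand at -188 to -178 (chr22:21642109-21642129, plus strand): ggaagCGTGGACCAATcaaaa
HERPUD1 was the only gene of the 10 whose window held both an ERSE type element and the CARE letters.

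Kept cells, those with at least 200 genes, at least 500 UMIs (distinct molecules) and under 5% of UMIs from mitochondrial genes, numbered 1116 (shScr) and 788 (shAPC) at day 3 and 2600 and 1478 at day 7, with 28451455 to 39797418 UMIs per library. The shScr day 7 cells were shallow, at a median of 1330 UMIs against 21029.5 to 49685.5 elsewhere, and the limits removed 51.3% of the shAPC day 7 barcodes against 24.1% to 28.8% elsewhere. The day 3 libraries shared 23 barcodes and the day 7 libraries 25, of which 19 and 4 were kept in both, and the other pairs shared 2 to 7. APC, the target, had 16.1 CPM (counts per 1000000 UMIs) at day 3 under shScr and 5.52 CPM under shAPC, and 19.1 and 6.61 CPM at day 7. Of 9 epithelial markers, KRT20 and CDX2 were at 0 in all libraries and EPCAM, CDH1 and VIL1 had at most 2 UMIs in any, and the 9 summed to at most 49.3 CPM in a library. The 7 mesenchymal markers summed to 8786 to 11347 CPM, immune markers to at most 0.944 CPM and endothelial markers to at most 0.276 CPM, so the labelled epithelial identity rested on KRT8, KRT18, KRT19 and CLDN7 alone.

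All 10 genes were detected in all 4 libraries, and their summed share of the transcriptome varied little. Together they held 1443 CPM under shScr and 1529 under shAPC at day 3, and 1419 and 1267 CPM at day 7. Values below are CPM of UMIs summed over kept cells, first for day 3 (shScr, then shAPC) and then for day 7 in the same order, and intervals are 95% and cover counting error only.

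CALR (calreticulin, ENSG00000179218), a lectin chaperone that binds glycoproteins and calcium, was the most abundant in UMIs, with 489, 536, 422 and 436 CPM. CANX (calnexin, ENSG00000127022), its membrane-bound partner, had 237, 170, 208 and 151 CPM. CALR was thus highest at day 3 under both shRNAs, whereas CANX was lower in shAPC than in shScr at both days. HSPA5 (BiP, ENSG00000044574), the main Hsp70 of the ER and the usual readout of ER stress, had 198, 221, 209 and 182 CPM. HSP90B1 (GRP94, ENSG00000166598), the Hsp90 of the ER, had 172, 136, 199 and 138 CPM. In CPM HSPA5 was thus higher in shAPC at day 3 and lower at day 7, and HSP90B1 was lower in shAPC at both.

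PDIA6 (ENSG00000143870) and PDIA4 (ENSG00000155660) are protein disulfide isomerases, which form and rearrange the disulfide bonds of folding proteins. PDIA6 had 146, 180, 130 and 120 CPM, and PDIA4 had 42.0, 47.2, 41.4 and 41.7 CPM. The intervals of PDIA4 overlapped in the libraries other than shAPC day 3, where it lay between 45.0 and 49.5 CPM. SDF2L1 (ENSG00000128228), a partner of the ER Hsp40 proteins that assist BiP, had 51.4, 53.9, 76.2 and 63.4 CPM, higher at day 7 than at day 3 under both shRNAs.

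The remaining 3 genes are those with the most direct tie to UPR signalling. XBP1 (ENSG00000100219), the transcription factor whose mRNA IRE1 splices, had 61.7, 119, 73.4 and 64.7 CPM, so shAPC day 3 stood well above the other libraries. HERPUD1 (ENSG00000051108), an ER membrane protein that helps to degrade misfolded proteins, had 32.9, 52.2, 42.7 and 54.4 CPM and was higher in shAPC at both days. DNAJB9 (ERdj4, ENSG00000128590), an Hsp40 co-chaperone that restrains IRE1, was the lowest, with 12.3, 14.1, 16.5 and 15.9 CPM from 453 to 514 UMIs.

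**Figure D1:**
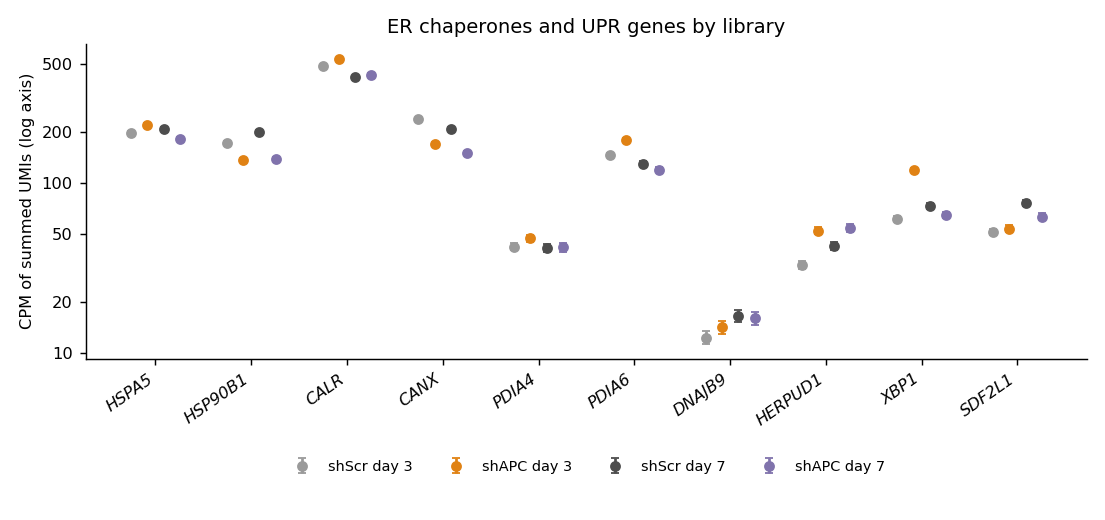
CPM (log axis) of the 10 genes in the 4 libraries, each point 1 library, with exact Poisson 95% intervals that are often smaller than the point. XBP1 in shAPC day 3, at 119 CPM, stands above the 61.7 to 73.4 CPM of the other libraries, and HSP90B1 and CANX are lower in shAPC at both days.

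shAPC was next set against shScr at each day, to see whether loss of APC came with a change of the ER chaperones. At day 3 the log2 ratio over the 5175 genes that reached 20 CPM in either library had a median of 0.28, so ratios are given relative to it. A gene is called when it lies at least 1.5-fold from that median. By this rule 3 of the 10 genes were called at day 3, against 12.1% of all genes: XBP1 was higher, and HSP90B1 and CANX were lower. The median of the 10 was -0.12, with 3 genes above the median of all genes and 7 below. Scaled by total UMIs in place of the median of all genes, the median of the 10 was 0.16 and 8 of the 10 were above 0, so the direction of the group depended on the scaling.

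XBP1 went from 61.7 to 119 CPM at day 3, a relative log2 ratio of 0.67 (0.60 to 0.74). CANX went from 237 to 170 CPM, or -0.76 (-0.81 to -0.71), and HSP90B1 from 172 to 136 CPM, or -0.62 (-0.68 to -0.57). The direction of these 3 held by total UMIs, at 0.95, -0.48 and -0.34, but CANX and HSP90B1 were then under 1.5-fold. Without the 5% of cells with the most UMIs CANX was still called at -0.65, but XBP1 at 0.40 and HSP90B1 at -0.47 were not, and without the barcodes that libraries share HSP90B1 was at -0.58 and not called. HERPUD1 was 0.38 (0.28 to 0.49) above the median of all genes and missed the 1.5-fold rule, whereas by total UMIs it was at 0.66, past 1.5-fold. The other 6 genes lay between -0.21 for SDF2L1 and 0.02 for PDIA6, with HSPA5 at -0.12 (-0.17 to -0.08), CALR at -0.15 (-0.18 to -0.12), PDIA4 at -0.11 and DNAJB9 at -0.08. BiP, the chaperone most used to read ER stress, was thus 1.12-fold higher by total UMIs and slightly below the median of all genes.

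At day 7 the median of all 4573 genes was -0.10, and none of the 10 genes was called, against 10.1% of all genes. Their median was -0.05. HERPUD1 was the highest at 0.45 (0.34 to 0.55), and HSP90B1 at -0.43 (-0.48 to -0.37) and CANX at -0.37 (-0.43 to -0.31) were again the lowest. XBP1 lay at -0.08 (-0.17 to 0.01) and HSPA5 at -0.11 (-0.16 to -0.05). HSPA5 and SDF2L1 (-0.17 at day 7) lay below the median at both days. HSP90B1, CANX and HERPUD1 also kept their side of it, at larger distances, whereas XBP1 was above it at day 3 alone. Of these, HSP90B1 and HERPUD1 were called at day 7 under 1 other setting each: HSP90B1 at -0.63 with the mean over cells of CPM, and HERPUD1 at 0.60 with cells thinned to 2000 UMIs. The shallow shScr day 7 library enters every day 7 value.

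The day 3 differences were not spread evenly over the cells. In cells with neither an ATF3 nor a DDIT3 UMI after each cell was thinned to 5000 UMIs (a random draw that sets all cells to the same depth), XBP1 at day 3 had 59.8 CPM (shScr) and 66.3 CPM (shAPC), a relative log2 ratio of -0.04 (-0.13 to 0.05). HERPUD1 was at 0.03 (-0.10 to 0.15) in the same cells. Among these cells 0 of the 10 genes were called, against 6.36% of 4891 genes. CANX was at -0.58 (-0.63 to -0.53) and HSP90B1 at -0.37 (-0.43 to -0.31), so both remained lower in shAPC. At day 7 the same restriction left HERPUD1 at 0.50 (0.38 to 0.63), HSP90B1 at -0.36 and CANX at -0.37, and again 0 of the 10 were called, against 9.38% of 4509 genes. The restriction thus removed the day 3 difference of XBP1 and HERPUD1 and left the day 7 difference of HERPUD1 in place. The restriction leaves out cells by the level of stress genes that lie in the same pathway, which is a description of where the UMIs lay. It also leaves out kept cells under 5000 UMIs, which were 1564 of 2600 in shScr day 7. Before thinning, the cells with neither gene still held DDIT3 at day 3, at 11.5 CPM (shScr) and 23.0 CPM (shAPC).

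**Figure D2:**
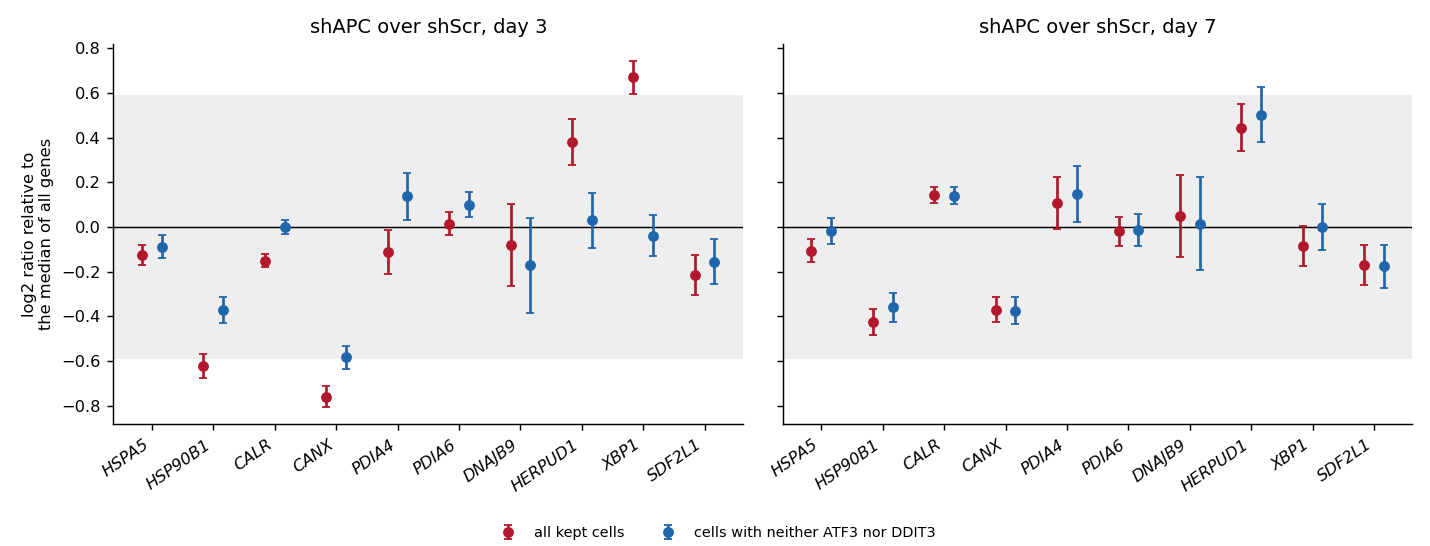
Log2 ratios of shAPC over shScr relative to the median of all genes at day 3 (left) and day 7 (right), for all kept cells (red) and for cells with neither ATF3 nor DDIT3 (blue). Bars are 95% intervals of counting error and the grey band is under 1.5-fold. At day 3 XBP1 lies at 0.67 in all kept cells and at -0.04 in the blue class, and at day 7 no red or blue point leaves the band.

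Between the days none of the 10 genes passed the rule. In shScr 0 of the 10 were called from day 3 to day 7, against 7.37% of 4556 genes, and in shAPC 0 of the 10, against 15.2% of 5176. SDF2L1 came closest in both, at 0.51 (0.43 to 0.60) in shScr and 0.58 (0.49 to 0.67) in shAPC. DNAJB9 was at 0.37 and 0.52, and HERPUD1 at 0.32 and 0.40. XBP1 was at 0.20 (0.11 to 0.28) in shScr and -0.54 (-0.62 to -0.46) in shAPC, which returned it from 119 to 64.7 CPM.

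The share of cells with a UMI was compared at equal depth. After thinning to 2000 UMIs, which left 899, 673, 1198 and 1087 cells, XBP1 was seen in 11.2% (9.25 to 13.5), 16.3% (13.6 to 19.4), 12.2% (10.4 to 14.2) and 13.3% (11.4 to 15.5) of cells. CALR was seen in 54.5%, 60.0%, 52.3% and 51.5% of cells, and HSPA5 in 30.0%, 29.7%, 29.3% and 24.7%. HSP90B1 was seen in 29.4% and 21.2% of shScr and shAPC cells at day 3 and in 26.4% and 18.5% at day 7, and CANX in 32.9%, 26.9%, 31.6% and 23.4%. The lower HSP90B1 and CANX of shAPC were thus visible as fewer cells with a UMI at both days, whereas small differences did not always have the same order in shares and CPM: at day 7 XBP1 had the lower CPM in shAPC and the slightly higher share. PDIA6 was seen in 19.4% to 30.0% of cells, SDF2L1 in 8.77% to 14.4%, PDIA4 in 6.45% to 8.43%, HERPUD1 in 6.56% to 10.1% and DNAJB9 in 1.67% to 3.27%. Without thinning the XBP1 shares were 62.9%, 74.0%, 35.5% and 52.4%, which followed the depth of the libraries. These cultures hold no cell type that should lack the 10 genes, so the share that free RNA gives was not measured.

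Across cells the chaperones varied together only weakly. Over cells thinned to 10000 UMIs (765, 576, 919 and 927 cells) the 45 pairs among the 10 genes had a median Pearson r of 0.06 to 0.10 per library. The pairs whose lowest r over the libraries was highest were HSP90B1 with CALR (0.27), HSPA5 with HSP90B1 (0.24) and HSPA5 with CALR (0.22), all 3 of them abundant chaperones of the ER lumen. Ranked in this way against the 3818 genes with at least 0.2 thinned UMIs per cell, HSP90B1 and CALR were the first and second most like HSPA5. Among those that came next were TMBIM6 (0.18), an ER membrane protein, and CD63 (0.17), a lysosomal membrane protein. XBP1 ranked 32 and HERPUD1 83. Cells of 1 library share its preparation, and sparse counts lower every r.

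The wider pathway was read from lists of other genes. Of 22 other ER chaperones, 20 reached 20 CPM at day 3, of which 0 were called higher and 2 lower in shAPC, against 6.74% and 5.31% of all genes. The 2 were PDIA5 (-0.64), a disulfide isomerase, and DNAJC3 (-0.62), a co-chaperone that inhibits PERK, while ERP44 (0.38) and PRDX4 (0.35), which retain and oxidise disulfide enzymes, were the highest. Of the 17 genes measured for ER-associated degradation none was called, from EDEM1 (-0.48) and UBE2J1 (-0.42) to SELENOK (0.27) and DERL2 (0.33). The medians of these lists, -0.0047 and -0.042, lay close to the median of all genes.

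Of 15 genes of the translocon, which brings new proteins into the ER, 0 were called higher and 2 lower at day 3, against the same 6.74% and 5.31% of all genes. Their median was -0.38, with 3 of 15 above the median of all genes. The 2 were SPCS3 (-1.15), a subunit of signal peptidase, and SEC61B (-0.80), a subunit of the channel, with SRPRB (0.18) and SEC62 (0.33) at the upper end. At day 7, 2 of 15 other chaperones and 2 of 15 translocon genes were called lower, against 5.73% of all genes, among them DNAJC3 (-0.74) and SPCS3 (-1.25, from 97.4 to 38.4 CPM). Of the 6 sensors and factors measured at day 3 none was called, from MBTPS1 (-0.42), the protease that activates ATF6, and ATF4 (-0.23) to ATF6B (0.07) and EIF2S1 (0.18), the subunit that PERK phosphorylates. ATF6 lay at -0.20, and ERN1 (4.92 to 8.39 CPM) and EIF2AK3 (2.97 to 2.75 CPM) stayed under 20 CPM. Of 9 heat shock genes of the cytosol and mitochondria none was called at day 3, from HSPA8 (-0.36) and HSPB1 (-0.21) to HSP90AB1 (0.10) and BAG3 (0.17).

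The ATF4 and CHOP arm was the exception. At day 3, 8 of its 16 measured genes were called higher and 0 lower, and 6 of 14 with ATF3 and DDIT3 left out, against 6.74% higher and 5.31% lower of all genes. DDIT3, the pro-apoptotic factor CHOP, went from 16.6 to 178 CPM and ATF3 from 1.03 to 44.7 CPM. TRIB3 (1.75), a pseudokinase that restrains ATF4, CHAC1 (1.32), which degrades glutathione, PPP1R15A (1.28), which reverses the PERK signal, and ASNS (1.05), the asparagine synthetase, were also called higher, whereas SLC7A11 (-0.29) and PSAT1 (-0.26), in cystine import and serine synthesis, were not. At day 7, 1 of 12 was called higher, against 4.33% of all genes, and DDIT3 (48.3 to 33.9 CPM) and ATF3 (15.4 to 3.37 CPM) were lower in shAPC than in shScr. This list was known to hold higher genes in shAPC day 3 when it was drawn up, so its count is a description. Genes could also pass the 20 CPM minimum through shAPC alone, where they were high. In shScr, at day 3 or day 7, 10 of the 17 listed genes reached it, and 9 of 15 without ATF3 and DDIT3.

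**Figure D3:**
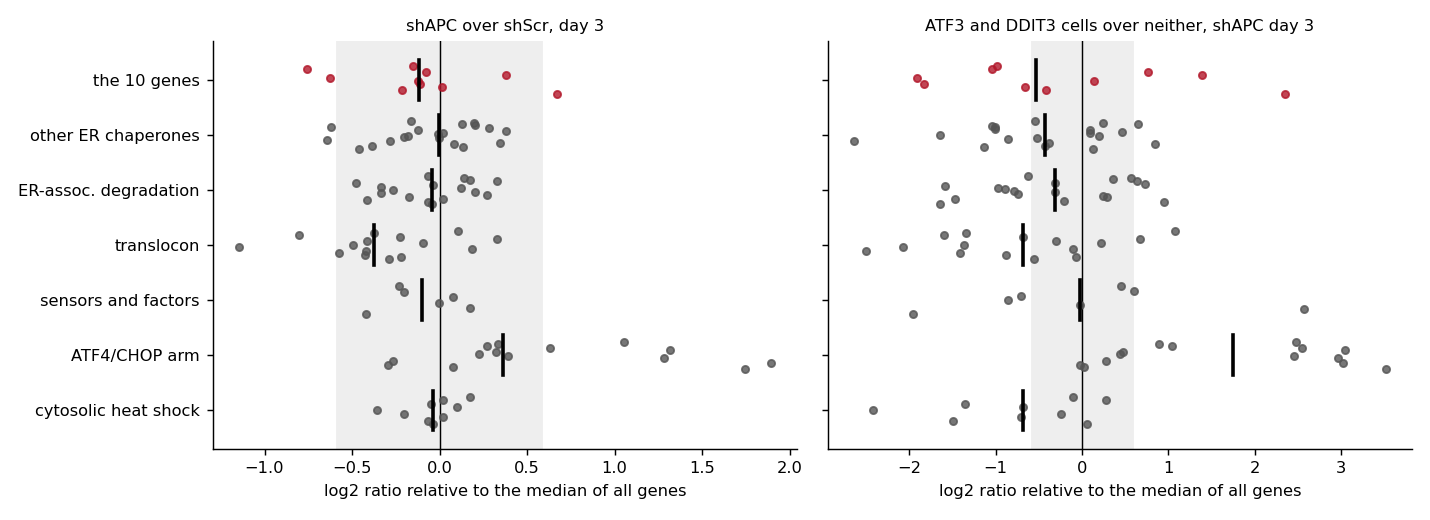
Log2 ratios relative to the median of all genes for the 10 genes (red) and for the other lists (grey, genes that reached 20 CPM, ATF3 and DDIT3 left out), for shAPC over shScr at day 3 (left) and for ATF3 and DDIT3 cells over cells with neither in shAPC day 3 (right). Each point is a gene, black bars are medians and the grey band is under 1.5-fold. The ATF4 and CHOP arm lies highest in both panels, at medians of 0.36 and 1.74, and the medians of the 10 genes lie at -0.12 and -0.54.

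Since ATF3 and DDIT3 were concentrated in few cells, the 10 genes were then compared between those cells and the rest. Cells with at least 1 UMI of ATF3 and 1 of DDIT3 after thinning to 5000 UMIs numbered 33 of 616 in shAPC day 3, or 5.36% (3.72 to 7.44, exact binomial). They numbered 0 of 809 in shScr day 3, which allows a share of up to 0.371% by 3 counts of the total (0.455% as the upper exact binomial limit), 14 of 1036 in shScr day 7 and 5 of 994 in shAPC day 7. Of the 33, 6 had a barcode that another library also held. The 33 cells differed from the 490 cells with neither gene in more than stress genes. Their median depth was 88565 UMIs against 55073, their median mitochondrial share 1.24% against 3.81%, and ribosomal protein genes took 23.0% of their UMIs against 31.5%. The part of these differences in the results was not tested, and 54.1% of 6485 genes were called between the classes, with a median log2 ratio of all genes of 0.59.

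Within that broad difference the 10 genes split. The count was 3 called higher, against 25.7% of all genes, and 5 lower, against 28.4%. In either direction 8 of the 10 were called, against 54.1% of all genes, so a call here sets a gene little apart. XBP1 was called higher, from 66.3 to 509 CPM, a relative log2 ratio of 2.35 (2.24 to 2.45). HERPUD1 went from 36.6 to 145 CPM, or 1.39 (1.22 to 1.56), and DNAJB9 from 11.9 to 30.5 CPM, or 0.76 (0.40 to 1.10). These are the gene of the IRE1-spliced factor, a degradation factor and the IRE1 co-chaperone. For XBP1 and HERPUD1 the classes were also apart cell by cell. XBP1 lay between 110 and 2568 CPM in the 33 cells, and all 33 were above the median of the cells with neither (57.8 CPM). HERPUD1 was above that median (23.1 CPM) in 32 of 33 cells. DNAJB9 was above its median of 0 in 23 of 33, for which 1 UMI was enough in cells not set to equal depth. Thinned to 5000 UMIs, a DNAJB9 UMI was found in 4 of the 33 (12.1%, 3.40 to 28.2). Among the 490 it was found in 27 (5.51%, 3.66 to 7.92), so the intervals overlapped. The DNAJB9 call rested on 1 cell. Without that cell, at 351 CPM, its summed level in the class was 20.7 CPM and its ratio 0.20 (-0.23 to 0.61), which was not called. DNAJB9 also reached 20 CPM in the 33 cells alone. Leaving out the highest cell in the same way, a setting chosen after seeing the data, gave 2.21 for XBP1 and 1.23 for HERPUD1, both still called.

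HSP90B1, PDIA4, CANX, CALR and PDIA6 did not share this. HSP90B1 went from 151 to 60.3 CPM, or -1.91 (-2.14 to -1.70), and PDIA4 from 52.4 to 22.2 CPM, or -1.84 (-2.22 to -1.47). CANX, from 182 to 133 CPM, was at -1.04, CALR, from 558 to 426 CPM, at -0.98, and PDIA6, from 179 to 172 CPM, at -0.66. All 5 were called lower relative to the median of all genes. By total UMIs they lay between -1.32 for HSP90B1 and -0.06 for PDIA6, whose interval included 0 (-0.20 to 0.07). HSP90B1 and PDIA4 (-1.24) stayed past 1.5-fold on that scale, whereas CANX (-0.45), CALR (-0.39) and PDIA6 did not. Only 5 of the 33 cells exceeded the HSP90B1 median of the cells with neither (116 CPM), and 7 of 33 did so for PDIA4. SDF2L1 was at -0.42 (-0.65 to -0.19) and was not called, and without its highest cell it was at -0.61 and called lower.

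HSPA5 was not called at 0.14 (0.04 to 0.24), although its summed level was 346 CPM in the 33 cells and 208 in the 490. By total UMIs its ratio was 0.74 (0.64 to 0.83), past 1.5-fold, so its reading depended on the scaling. The median cell held 173 CPM in the first class and 168 in the second, and 17 of the 33 cells were above the latter. Its highest cell held 3038 CPM, and without it the summed level of the other 32 was 315 CPM. The upper quartile was 380 CPM in the 33 cells and 272 in the 490, so the higher sum lay in the upper part of the class and not in its median cell. Its ratio was 0.98 with the 15 cells found after thinning to 2000 UMIs and 1.20 with the 17 cells left when the deepest 5% of the library were removed, both past 1.5-fold, and 0.39 with the 27 cells whose barcodes were in 1 library only. XBP1 under these settings was at 2.70, 2.81 and 2.47, HERPUD1 at 1.95, 1.83 and 1.52, and HSP90B1 at -1.61, -1.61 and -2.21. DNAJB9 was at 1.63, 1.44 and 1.07, and with the 15 cells of at least 2 UMIs of both genes it was at 0.23 and no longer called.

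**Figure D4:**
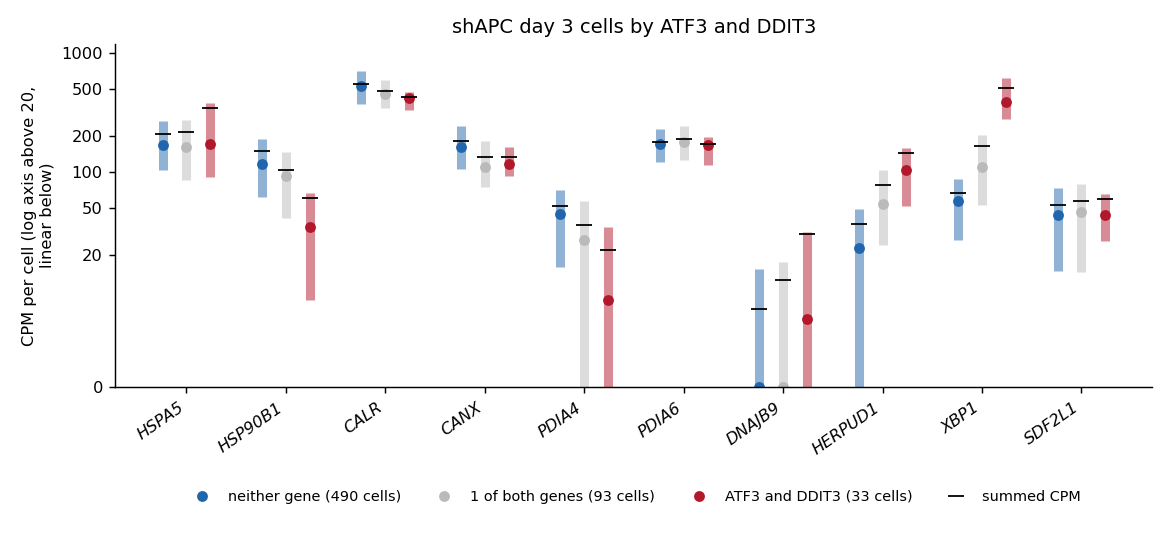
CPM per cell in shAPC day 3 for cells with neither ATF3 nor DDIT3 (blue), with 1 of them (grey) and with both (red). Points are medians over cells, thick bars run from the lower to the upper quartile, and black dashes are the CPM of the summed UMIs (axis logarithmic above 20 CPM and linear below). XBP1 and HERPUD1 are higher in red than in blue, at medians of 386 against 57.8 and of 105 against 23.1 CPM, whereas HSP90B1 is lower at 34.4 against 116 CPM and the medians of HSPA5 are 173 and 168 CPM.

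These cells weighed on the library as a whole. The 33 cells held 8.33% of all UMIs of the 616 scored cells. They held 35.6% of the XBP1 UMIs, 23.1% of those of HERPUD1 and 17.9% of those of DNAJB9, but 3.70% of those of HSP90B1. They held 58.9% of the DDIT3 UMIs and 75.5% of the ATF3 UMIs. The 82 cells with DDIT3 alone were intermediate, with XBP1 at 163 CPM and HERPUD1 at 81.0 CPM. At equal depth, thinned to 5000 UMIs, an XBP1 UMI was found in 28 of the 33 cells (84.8%, 68.1 to 94.9) and in 138 of the 490 (28.2%, 24.2 to 32.4), and an HSPA5 UMI in 63.6% (45.1 to 79.6) and 60.2% (55.7 to 64.6). Across 576 cells thinned to 10000 UMIs, XBP1 had an r of 0.49 with DDIT3 and HERPUD1 of 0.38, against 0.10 for HSPA5 and -0.12 for HSP90B1.

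Of 7 sensors and factors measured in the classes 2 were called higher and 3 lower, against 25.7% and 28.4% of all genes. Their values ran from -1.96 to 2.57, with a median of -0.02. The 2 higher ones reached 20 CPM in the 33 cells alone. ERN1, which encodes IRE1, went from 4.22 to 37.8 CPM, a relative log2 ratio of 2.57 (2.17 to 2.96), and ATF6 from 18.8 to 43.0 CPM, or 0.60 (0.30 to 0.89). Neither ratio was repeated without the highest cell of the gene. EIF2AK3, which encodes PERK, had 84 UMIs in the 490 cells and 2 in the 33, and was under 20 CPM in both, so that no call was made. ATF4 went from 159 to 329 CPM, or 0.45, and was not called. In the ATF4 and CHOP arm 11 of 16 genes were called higher, 9 of 14 without ATF3 and DDIT3, by which the cells were chosen, against 25.7% of all genes. Genes could pass the 20 CPM minimum through the 33 cells alone, where they were high. In day 3 cells with neither gene, shScr or shAPC, 13 of the 17 listed genes reached it, and 12 of 15 without ATF3 and DDIT3. TRIB3 was at 3.52, CHAC1 at 3.05, PPP1R15A at 2.97 and ASNS at 2.47. Of 19 other ER chaperones 2 were called higher and 7 lower, with PRDX4 at 0.84 and PDIA5 at -2.64, against 25.7% and 28.4% of all genes. Of 18 degradation genes 3 were called higher and 8 lower, with DERL2, a channel component, at 0.64 and VCP, the ATPase that extracts proteins from the membrane, at -1.65.

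The comparison was repeated in every library by DDIT3, with or without ATF3, since the other libraries held too few cells with both genes. In shAPC day 3 the DDIT3 cells include the 33 cells with both genes. Those 33 gave 1468 of the 2252 XBP1 UMIs and 418 of the 808 HERPUD1 UMIs of that class. The values of shAPC day 3 thus partly restate the comparison above. At day 7 the DDIT3 cells include the 14 (shScr) and 5 (shAPC) cells with both genes. Cells with a DDIT3 UMI after thinning were set against cells without, and percentages of all genes called at day 3 were 3.5% under shScr (1.77% higher, 1.73% lower) and 36.1% under shAPC (18.4% higher, 17.7% lower). At day 7 they were 18.2% (11.8% higher, 6.37% lower) and 8.12% (5.07% higher, 3.05% lower). HERPUD1 was called higher in all 4, at 0.68, 1.15, 1.03 and 0.84 in that order. XBP1 was at 0.49 (0.30 to 0.67), 1.73 (1.64 to 1.82), 1.08 (0.93 to 1.24) and 0.77 (0.59 to 0.94), above 0 in every library and called in the last 3. HERPUD1 and XBP1 thus went with DDIT3 in the scrambled control as well as in shAPC.

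HSPA5 was at 0.33 (0.22 to 0.44), 0.04 (-0.03 to 0.12), 0.26 (0.14 to 0.37) and 0.04 (-0.09 to 0.16) in the same order. It was not called in any of the 4, but its interval lay above 0 in both shScr libraries. DNAJB9 was at 0.64, 0.53, 0.18 and 0.34, and reached 20 CPM only in the DDIT3 cells of the 2 shAPC libraries, where it was not called. HSP90B1 was called lower in shAPC day 3 (-1.12) and lay at 0.12, -0.24 and -0.30 in the other libraries. PDIA4 was called lower in shAPC day 3 (-1.19) and shScr day 7 (-0.83) and lay at 0.07 and -0.47 in the others. CANX (-0.76) and CALR (-0.64) were called lower in shAPC day 3 alone, and PDIA6 and SDF2L1 in none. Whether the lower chaperones of shAPC day 3 differed from the other libraries beyond the spread between cultures could not be tested with 1 library per group.

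**Figure D5:**
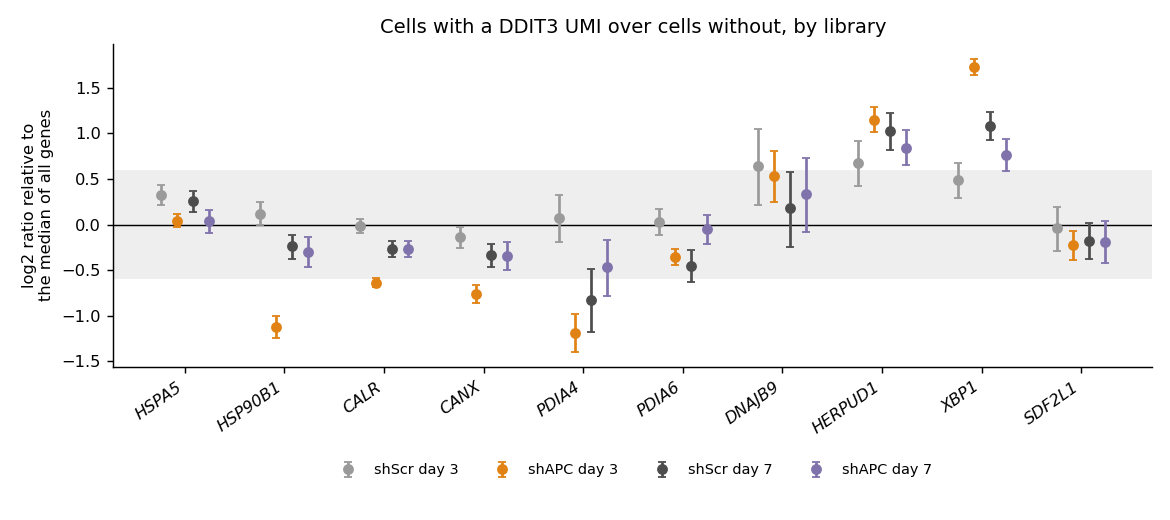
Log2 ratios of cells with a DDIT3 UMI (cells thinned to 5000 UMIs) over cells without, relative to the median of all genes, in each library, with 95% intervals of counting error and a grey band under 1.5-fold. HERPUD1 lies above the band in all 4 libraries (0.68 to 1.15) and XBP1 in 3, HSPA5 lies between 0.04 and 0.33, and HSP90B1 and PDIA4 reach their lowest values, -1.12 and -1.19, in shAPC day 3.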

How the data were processed

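Droplet single-cell RNA-seq of 4 libraries was analysed. The authors aligned reads to GRCh38 (hg38) and deposited raw UMI counts per gene and barcode called as a cell. The headers of the count files name Cell Ranger 3.0.2 under shScr and 3.0.0 under shAPC, so version and shRNA cannot be told apart. The annotation release and cell calling settings are not given in the sources used here. The study's later scaling, batch correction and imputation were not applied, and its final set of cells was not recovered.

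The members and gene lists were chosen with earlier results of these data known. UMIs were summed over kept cells (at least 200 genes and 500 UMIs, under 5% mitochondrial), with Python 3.11.15, numpy 2.4.6, scipy 1.17.1 and pandas 2.3.3. CPM have exact Poisson, ratios exact conditional binomial and shares Clopper-Pearson 95% intervals. These cover counting error only, and a count of 0 was set to 3 UMIs in the ratios of all genes. The call was 1.5-fold from the median of genes that reached 20 CPM in either member of the pair. Doublets were not called, and leaving out the 5% of cells with the most UMIs served as an alternative. No test between groups was run. edgeR 4.0.16 (TMM) and DESeq2 1.42.0 (size factors) in R 4.3.3 gave alternative scalings only. Scripts were tested on simulated data. Named genes were the 10, APC, 10 stress genes, the 2 highest and 2 lowest of each list at day 3, and the 5 genes most like HSPA5, of which 1 is not reported here. Further examples were named after their values were seen. Sequences are from RefSeq (GRCh38.p14), and GRCh38 positions of the printed sites were read from the same windows.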

Additional observations from a re-analysis of the deposited data

Results flagged for a closer look

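CALR, the most abundant of the 10 genes, lay on opposite sides of the median of all genes at the 2 days. Its relative log2 ratio of shAPC over shScr at day 3 was -0.15, between -0.18 and -0.12, whereas day 7 gave 0.14, between 0.11 and 0.18, with intervals that cover counting error only. The difference between the days was not tested, since each group held 1 library. Scaled by total UMIs the ratios were 0.13 and 0.05, both above 0, and in cells with neither ATF3 nor DDIT3 the day 3 interval included 0 (-0.03 to 0.03) while day 7 was at 0.14.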

How the results depend on the processing

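With 1 library per group every value rests on single libraries, and depth limits DNAJB9 most. The day 3 ratio of DNAJB9 ran from -0.18 to 0.77 over the settings, past 1.5-fold at the upper end. No paired analysis was possible because the groups share no replicate numbers beyond 1 library each. The day 3 median of the 10 genes, -0.12, was near 0 and changed sign without the 5% of cells with the most UMIs (0.0080), thinned to 2000 UMIs (0.0039), relative to genes of at least 100 CPM (0.038), by total UMIs (0.16) and by UMIs outside mitochondrial and ribosomal protein genes (0.050). It was -0.18 with no CPM minimum, -0.22 with TMM and -0.20 with DESeq2 size factors. The 3 genes called at day 3 became 1 (CANX) without the deepest 5% of cells, 0 in cells with neither ATF3 nor DDIT3 and 0 at 2-fold. XBP1 at day 3 was -0.039 in cells with neither gene. By total UMIs XBP1 (0.95) and HERPUD1 (0.66) were past 1.5-fold at day 3, and CANX (-0.48) and HSP90B1 (-0.34) were not. Leaving out barcodes that libraries share, a setting chosen after seeing the data, left 2 called at day 3 (XBP1 at 0.61 and CANX at -0.73) with HSP90B1 at -0.58. The day 7 median, -0.05, was -0.18 with the mean over cells of CPM, -0.19 with no CPM minimum, -0.15 by total UMIs, -0.16 with TMM and -0.17 with DESeq2, and 1 gene was called with the mean over cells of CPM and 1 with thinning to 2000 UMIs. Between ATF3 and DDIT3 cells and the rest, the median of the 10 genes was -0.54. It was -0.36 with classes thinned to 2000 UMIs, -0.99 with at least 2 UMIs of both genes and -0.36 without the deepest 5%. With classes set by DDIT3, with or without ATF3, it was -0.29. By total UMIs, a setting chosen after seeing the data, it was 0.059. XBP1 and HERPUD1 stayed above 0 (1.73 to 2.94 and 1.08 to 1.99) and HSP90B1 below it (-2.70 to -1.12) in every setting of that comparison. The cause of these changes was not tested.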

Other observations

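Among other folding genes, the 33 ATF3 and DDIT3 cells of shAPC day 3 were also low in the abundant cytosolic and mitochondrial chaperones. HSPA8, the constitutive Hsp70 of the cytosol, went from 576 to 162 CPM, a relative log2 ratio of -2.42 (-2.56 to -2.29), HSPE1, a mitochondrial co-chaperone, was at -1.50, and HSP90AB1 at -0.69. Of 9 heat shock genes measured, 5 were called lower and 0 higher, against 28.4% and 25.7% of all genes. BAG3 (-0.10) and HSPB1 (-0.24) were not called. In the translocon list 8 of 15 genes were called lower and 2 higher, with SPCS3 at -2.08 and SEC61B at -1.60, while SEC62 was called higher at 0.67, from 170 to 408 CPM. These values were seen only after the classes had been set, and depth, mitochondrial share and ribosomal share differed between the classes as given above.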
